A study of Homo sapiens with 8 samples.

Results

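The genes described here are 7 genes tied to DUX4-rearranged B-precursor acute lymphoblastic leukemia, the subtype to which the NALM6 line belongs: ERG, CLEC12A, AGAP1, PTPRM, STAP1, CLIC5 and CD2. They were taken by name from a list of the subtype's genes and not by a rule on their values, though earlier results of these data were known. All 7 have a row among the 23713 rows of both deposited tables. Of them, 4 (ERG, CLEC12A, AGAP1 and STAP1) passed the minimum set for testing, a mean of 1 normalized FPKM over the 8 libraries. Of all 23713 rows, 11465 passed it, so passing is not particular to the members. FPKM are fragment counts scaled by transcript length and library size, so levels of different genes may be compared.

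Poly(A) RNA of NALM6, an established human B-cell precursor leukemia line, was sequenced in 4 groups of 2 libraries. All cells carried a doxycycline-inducible HMGN1 construct, HMGN1 being a nucleosome-binding protein encoded on chromosome 21. The groups are SE DOX and SE vehicle, with the S20,24E mutant of HMGN1 that is deficient in nucleosome binding, and WT DOX and WT vehicle, with wild-type HMGN1. DOX cells received doxycycline at 100 ng/ml and vehicle cells the vehicle, each for 6 hours. Each group has a biological replicate A and B, and the labels do not say whether these are separate clones, cultures or preparations, so p-values measure only the spread between these libraries, which may be technical. Cell numbers were matched before RNA isolation, and ERCC spike-in RNA was added so that levels can be set per cell.

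In this subtype the homeobox transcription factor DUX4, normally active in the cleavage-stage embryo, is expressed in B-cell precursors after rearrangement into the immunoglobulin heavy chain locus. DUX4 disturbs ERG, an ETS-family transcription factor of blood stem cells and endothelium whose gene lies on chromosome 21, by inducing an alternative ERG transcript, and many such leukemias also carry ERG deletions. The leukemias share an expression signature that includes surface proteins otherwise seen on other blood cells, such as the myeloid lectin CLEC12A (CD371) and the T-cell adhesion molecule CD2.

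Facts of the whole data set bear on all values below. The construct's gene HMGN1 stood at 1061 to 1427 unnormalized FPKM in SE and 793 to 809 in WT and was not higher in libraries labelled DOX, so each direction given is that of the libraries labelled DOX. For the members with signal, the WT replicate A libraries stand apart from WT replicate B in both treatments. The comparisons of SE with WT below are also given without WT replicate A. Over all genes tested, the median absolute log2 difference of A and B at equal library medians was similar in the lines. It was 0.131 in WT DOX and 0.128 in WT vehicle, against 0.127 in SE DOX and 0.111 in SE vehicle. A difference of 1.5-fold or more in the same direction in both treatments was reached by 3.04% of genes in WT and 1.54% in SE. In the normalized table most genes moved together between libraries: over the 11465 genes tested, the median of the log2 fold changes was -0.24 for DOX against vehicle in SE and -0.32 for SE against WT in vehicle. Fragment counts are not given. From the most common ratio between very low values, each library held 0.753 to 1.14 times the fragments of WT vehicle A. The row of a gene does not separate its transcript forms, so ERG values hold the alternative transcript as well. All 17 B-lineage markers listed were above the testing minimum, led by IGLL1, CD24 and VPREB1. Of the other blood and vessel lineages, 1 of 12 T-cell markers (GATA3), 2 of 15 myeloid markers (LYZ and CD33), 1 of 8 endothelial markers (EGFL7) and 0 of 8 erythroid markers were. Of all 23713 rows, 11465 were.

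The windows around the transcript starts of ERG, CLEC12A and STAP1 are shown. At equal library medians these are the tested members whose levels separated the WT replicates most, ERG in one direction and the others in the opposite one. On the normalized scale ERG separated them least of the tested members. Each window spans 250 bases before to 50 bases after a start, 5′ to 3′ on the gene's strand, from RefSeq on build GRCh38.p14. The FPKM tables were made on another build, hg19, and no coordinate was carried over. ERG lies at chr21:38660618-38660917 on the minus strand, the most upstream of 4 starts in the table, CLEC12A at chr12:9971159-9971458 on the plus strand and STAP1 at chr4:67558477-67558776 on the plus strand. Capitals mark matches to the ETS core GGAAGT on either strand.
ERG: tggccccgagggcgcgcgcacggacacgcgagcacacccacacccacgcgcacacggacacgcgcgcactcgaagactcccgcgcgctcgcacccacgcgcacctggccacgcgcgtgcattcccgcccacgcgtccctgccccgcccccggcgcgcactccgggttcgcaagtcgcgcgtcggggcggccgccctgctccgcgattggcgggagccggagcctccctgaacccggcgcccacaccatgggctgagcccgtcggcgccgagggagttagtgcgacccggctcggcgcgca
CLEC12A: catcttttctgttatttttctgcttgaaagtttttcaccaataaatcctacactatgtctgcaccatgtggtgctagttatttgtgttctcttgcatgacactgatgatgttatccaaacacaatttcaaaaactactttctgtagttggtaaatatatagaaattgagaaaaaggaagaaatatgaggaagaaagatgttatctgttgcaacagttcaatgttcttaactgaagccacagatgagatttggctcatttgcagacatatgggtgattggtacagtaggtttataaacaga
STAP1: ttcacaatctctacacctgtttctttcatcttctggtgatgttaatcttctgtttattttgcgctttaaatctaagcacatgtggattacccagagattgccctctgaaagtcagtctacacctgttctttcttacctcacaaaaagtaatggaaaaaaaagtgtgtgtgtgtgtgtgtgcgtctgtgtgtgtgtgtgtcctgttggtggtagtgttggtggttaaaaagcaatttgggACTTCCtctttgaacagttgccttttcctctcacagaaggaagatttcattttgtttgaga

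The ERG window shown is rich in G and C, at 77.0% of bases, against 34.0% for CLEC12A and 39.7% for STAP1. The median was 58.7% over 35116 windows of all genes. The windows of the other ERG starts were under this median, at 38.7%, 45.7% and 44.3%, so the high share belongs to the start shown. The ETS core GGAAGT, searched on both strands, was found in 1 of the 12 windows of the members, that of STAP1, and in 22.8% of all windows. The longer DUX4 motif known from human muscle cells was found in 0 of the 12 windows and in 0.239% of all. Windows were at hand for 6 of the 7 members, AGAP1 being the other. A match, or its lack, describes these letters only.

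The 7 members stood at very different levels in NALM6. STAP1, an adaptor protein that is a substrate of the kinase TEC and acts near the B-cell receptor, was the member with the highest level, at 125 to 178 unnormalized FPKM over the 8 libraries. ERG followed at 16.7 to 32.0, AGAP1, a GTPase-activating protein for Arf GTPases that works in endosome traffic, at 13.6 to 18.4, and CLEC12A at 4.39 to 8.89 unnormalized FPKM. ERG and AGAP1 changed places in this order: AGAP1 was above ERG in the WT replicate A libraries and below it in the other libraries. PTPRM, a receptor tyrosine phosphatase that binds its own kind on neighbouring cells, was at 0.0209 to 0.875 unnormalized FPKM and under the testing minimum.

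CD2 and CLIC5 were at or near 0. CD2 was listed at 0 unnormalized FPKM in 8 of 8 libraries. CLIC5, a chloride intracellular channel family protein that links membranes to the actin skeleton, was listed at 0 in 7 libraries and at 0.01 in WT vehicle B. The value 0.01 stands in 631 to 944 rows of each library and is not read as expression. In the normalized table both genes stand at 0.0947 to 0.116, where rows listed at 0 are found, so no fold is given for them.

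DUX4 itself had no signal on its own rows. Of 11 DUX4-related symbols looked for, 6 have a row here; DUX4, DUX4L2, DUX4L3 and DUX4L6 were listed at 0 in all 8 libraries, DUX4L4 reached 0.0139 unnormalized FPKM in SE DOX B and DUXA reached 0.01. DUX4 and the DUX4L genes are near-identical repeats among which reads can be divided or dropped, so no statement on the DUX4 transcript rests on these zeros. Of 18 genes that DUX4 activates in muscle cells and the cleavage-stage embryo, such as ZSCAN4 and LEUTX, 0 were above the minimum, beside 11465 of all 23713 rows. The highest, KHDC1L, reached 0.413 unnormalized FPKM, and the whole list summed to 0.468 to 1.04 per library. Among 21 markers of other leukemia subtypes, 2 were above the minimum, TCFL5 at 15.3 to 22.1 and IGJ, the immunoglobulin joining chain, at 0.733 to 12.6 unnormalized FPKM. Another 7 of the 21 were listed at 0 in all 8 libraries, among them HOXA9 and MEIS1, known from KMT2A-rearranged leukemia.

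**Figure D1:**
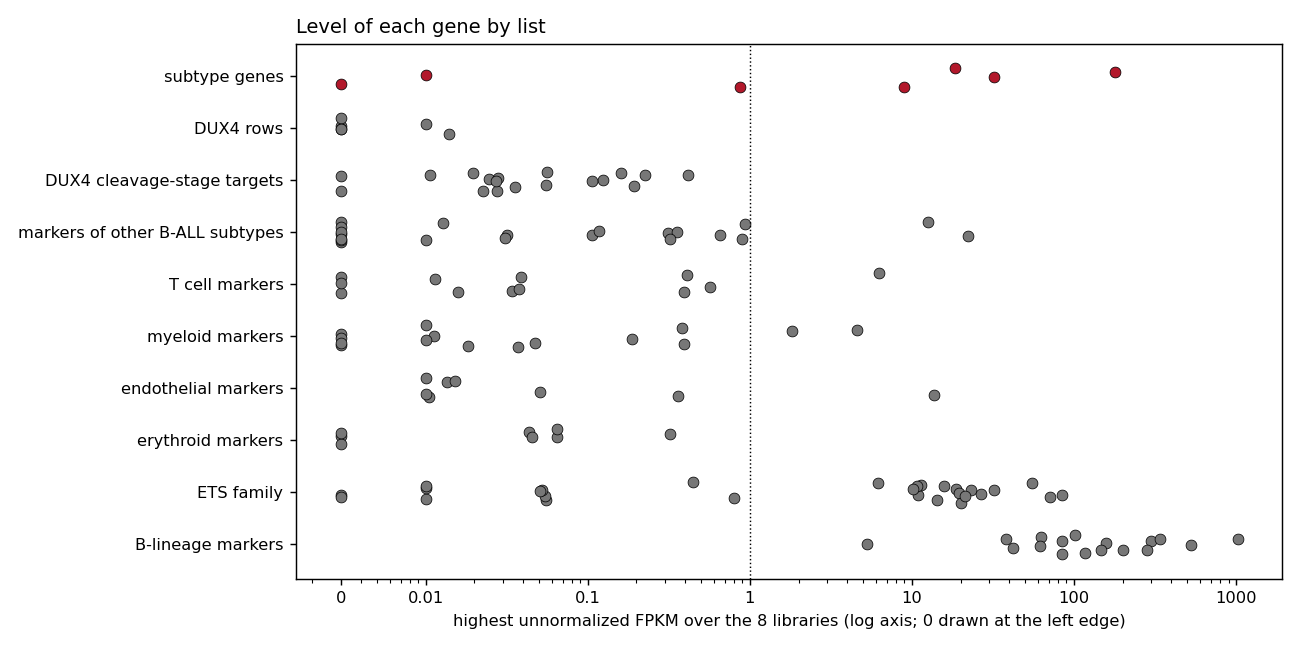
Highest unnormalized FPKM over the 8 libraries for each gene (1 point), by gene list, on a log axis with 0 drawn at the left edge and a dotted line at 1. The subtype genes run from CD2 at 0 to STAP1 at 178, while DUX4 rows and DUX4 targets stay at or under 0.413.

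The members differed more between replicates A and B of the WT line than between treatments. ERG stood at 29.8 (A) and 30.8 (B) unnormalized FPKM in SE DOX and 29.8 (A) and 32.0 (B) in SE vehicle, against 17.5 (A) and 27.8 (B) in WT DOX and 16.7 (A) and 27.0 (B) in WT vehicle. The WT replicate A libraries were the lowest, WT replicate B lay close under the SE libraries, and no SE library overlapped a WT library. PTPRM followed the same order, at 0.875 (A) and 0.491 (B) in SE DOX and 0.862 (A) and 0.560 (B) in SE vehicle, against 0.0209 (A) and 0.284 (B) in WT DOX and 0.0219 (A) and 0.306 (B) in WT vehicle. PTPRM was thus near 0 in WT replicate A, low in WT replicate B and higher in SE, again without overlap of the lines. Other listed genes under the testing minimum, such as PTPRU and MERTK, also had no overlap.

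CLEC12A ran the other way. It stood at 4.76 (A) and 5.24 (B) unnormalized FPKM in SE DOX and 5.38 (A) and 5.21 (B) in SE vehicle, against 7.98 (A) and 4.56 (B) in WT DOX and 8.89 (A) and 4.39 (B) in WT vehicle. STAP1 was at 125 (A) and 125 (B) in SE DOX and 126 (A) and 131 (B) in SE vehicle, against 174 (A) and 128 (B) in WT DOX and 178 (A) and 128 (B) in WT vehicle. AGAP1 was at 14.9 (A) and 15.4 (B) in SE DOX and 14.9 (A) and 15.2 (B) in SE vehicle, against 18.4 (A) and 13.8 (B) in WT DOX and 18.4 (A) and 13.6 (B) in WT vehicle. For each of these 3 genes the WT replicate A libraries were the highest of the 8, and WT replicate B lay with or under the SE libraries.

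**Figure D2:**
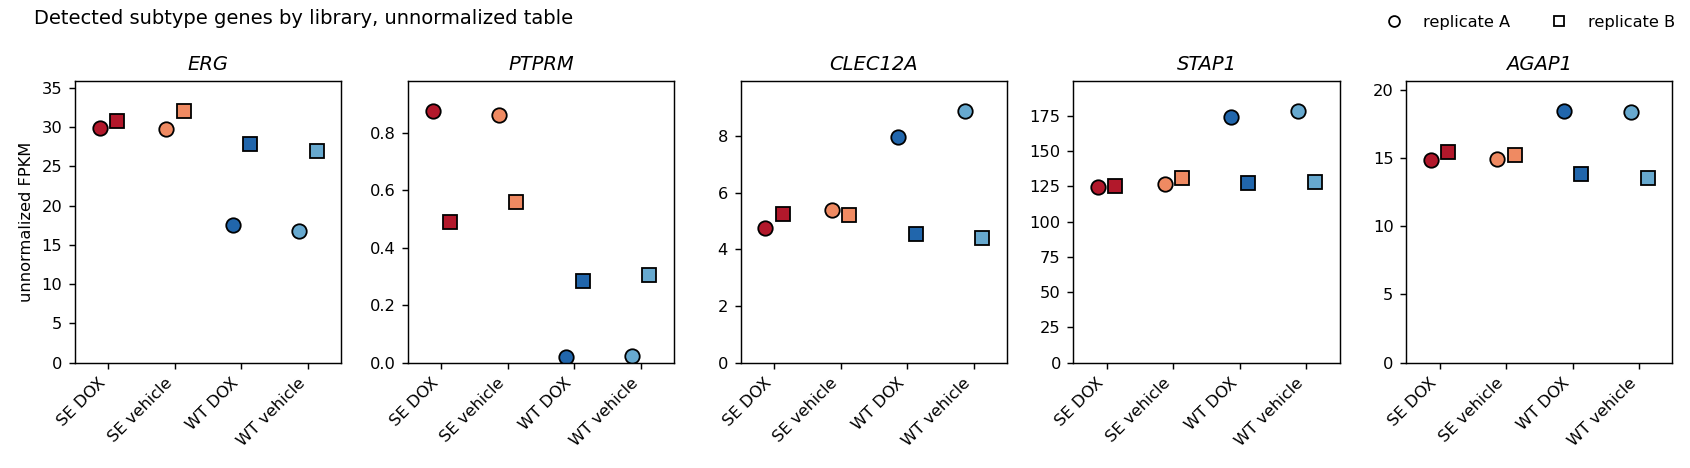
Unnormalized FPKM (vertical axes from 0) of the 5 members with signal in each library, by group, with circles for replicate A and squares for replicate B. The WT replicate A libraries are lowest for ERG and PTPRM and highest for CLEC12A, STAP1 and AGAP1, in DOX and in vehicle.

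Set to equal library medians, ERG in WT had a log2 difference, replicate A minus B, of -0.65 in DOX and -0.67 in vehicle. CLEC12A was higher in A by 0.80 and 0.98, STAP1 by 0.45 and 0.51 and AGAP1 by 0.42 and 0.44. In SE the same 4 genes differed between A and B by -0.12 to 0.03. The median absolute difference of the 4 members in WT was 0.55 in DOX and 0.589 in vehicle, against 0.131 and 0.128 over all genes tested. In SE it was 0.056 and 0.0355, against 0.127 and 0.111 over all genes. A difference of 1.5-fold or more in the same direction in DOX and vehicle was reached by 2 of the 4 tested members in WT (ERG and CLEC12A), where 3.04% of all genes tested reached it (2.71% with small RNA names left out), and by 0 of 4 in SE, where 1.54% did (1.25% with small RNA names left out). Each side of this comparison is 1 replicate, so no test was made, and the limit of 1.5-fold was chosen after the values were seen. Which members pass the limit depends on the scale. The normalized scale shifts all genes in replicate A minus B by a median of 0.24 in WT DOX, 0.21 in WT vehicle, -0.38 in SE DOX and -0.16 in SE vehicle. On it the differences in WT DOX and WT vehicle were -0.42 and -0.47 for ERG, 1.03 and 1.18 for CLEC12A, 0.68 and 0.71 for STAP1 and 0.64 and 0.64 for AGAP1. CLEC12A, STAP1 and AGAP1 thus passed there and ERG did not, 3 of 4 members beside 5.48% of all genes. In SE they were -0.48 to -0.37 in DOX and -0.25 to -0.11 in vehicle, with 0 of 4 past the limit beside 1.63% of all genes. ERG had -0.41 in SE DOX, close to its -0.42 in WT DOX.

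**Figure D3:**
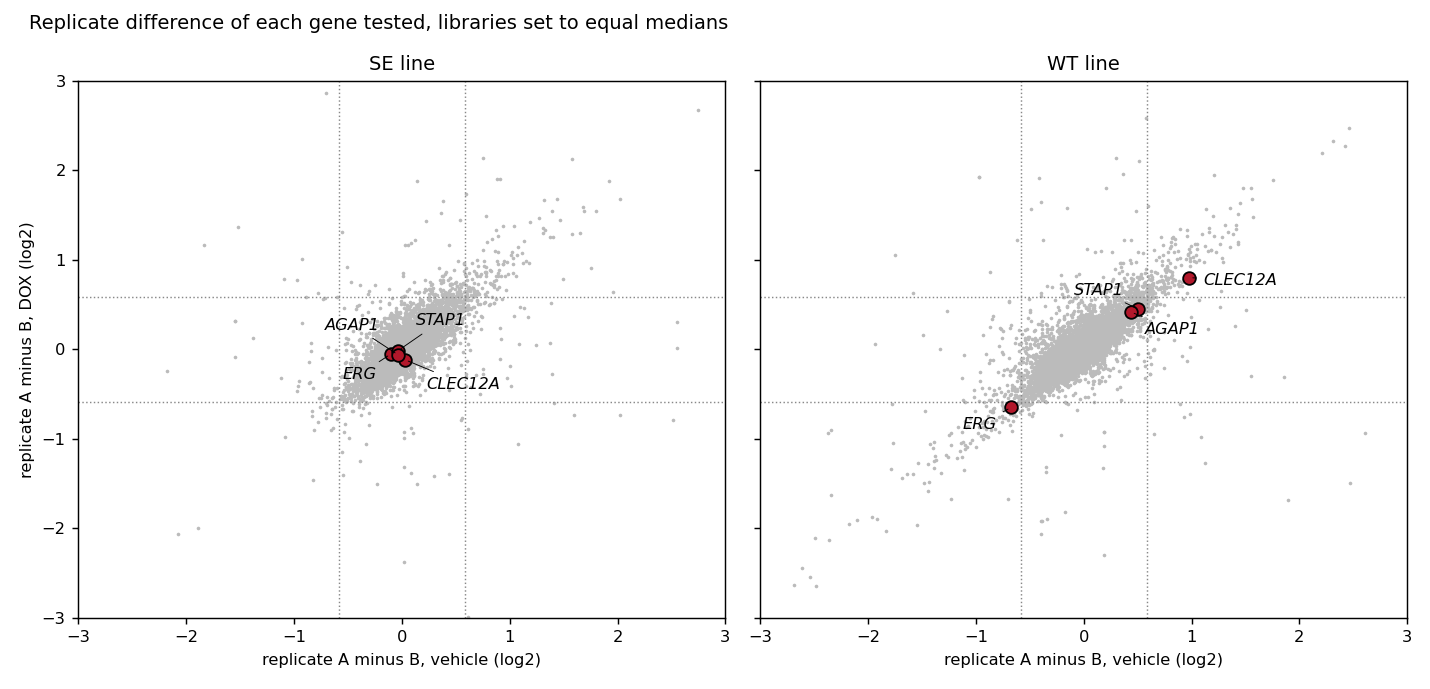
Log2 difference of replicate A minus replicate B in vehicle (horizontal) and in DOX (vertical) for every gene tested, libraries set to equal medians, with dotted lines at 1.5-fold; 131 genes in SE and 128 in WT lie outside the axes. In WT, ERG is at the lower left and CLEC12A at the upper right past the lines, with STAP1 and AGAP1 just inside them, while in SE the 4 genes lie near 0.

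Other genes near these members were read by lists. Of the 28 ETS genes, 17 were tested. ELF1, ETS2 and FLI1 had the highest levels, at 69.2 to 84.2, 56.5 to 71.4 and 41.4 to 54.9 unnormalized FPKM. At equal medians, the 1.5-fold difference between WT replicates was reached by 3 of 17, beside 3.04% of all genes tested. In SE it was reached by 0 of 17, beside 1.54%. The genes in WT were ERG itself, ELK3, lower in replicate A at -0.70 in DOX and -0.59 in vehicle, and SPIB, a B-cell ETS factor, higher at 1.13 and 0.98. FLI1, the closest relative of ERG, had -0.36 and -0.37. On the normalized scale ELK3 had -0.47 and -0.39 and, like ERG, did not pass, while SPIB passed with 1.35 and 1.18. ELK3, SPIB and the genes named for this limit below were picked after their values were seen. Of the 7 tested genes around ERG on chromosome 21, led by HMGN1, PSMG1 and ETS2, ERG was the 1 that reached the limit in WT at equal medians. On the normalized scale, with -0.42 in DOX and -0.47 in vehicle, ERG did not reach it.

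Among 28 paralogs and partners of the members, 19 were tested. At equal medians 3 of 19 reached the limit in WT, beside 3.04% of all genes tested, and 0 of 19 in SE, beside 1.54%. CLEC12B, the lectin gene next to CLEC12A, was higher in replicate A by 1.69 in DOX and 1.56 in vehicle. Reads of the adjacent pair could be divided between them. PTPRK, a phosphatase of the same class as PTPRM, was higher by 1.31 and 1.16, opposite to PTPRM. CTNND1, the p120 catenin that PTPRM is known to bind, was lower in replicate A, with differences of -1.43 and -1.68. The highest levels in this list were those of CLIC1, a relative of CLIC5, at 174 to 250, ARF1, the small GTPase, at 190 to 208, and BTK, a TEC-family kinase of B-cell receptor signalling, at 81.1 to 103 unnormalized FPKM. CD58, which binds CD2 in human, and CD48, which binds it in rodents, were at 22.6 to 33.5 and 17.3 to 39.5 although CD2 was listed at 0.

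The summed myeloid and endothelial markers differed between replicates A and B in both lines. The myeloid list summed to 4.14 (A) and 3.39 (B) unnormalized FPKM in SE DOX and 4.41 (A) and 3.58 (B) in SE vehicle, against 5.65 (A) and 2.85 (B) in WT DOX and 5.85 (A) and 2.97 (B) in WT vehicle. Most of it was LYZ and CD33, and 4 of its 15 genes, S100A8, S100A9, ELANE and FCN1, were listed at 0 in all libraries. At equal medians, LYZ in WT was higher in A by 1.2 in DOX and 1.4 in vehicle. CD33 in WT had 0.84 in DOX but -0.21 in vehicle. The endothelial list summed to 5.62 (A) and 9.42 (B) in SE DOX and 5.92 (A) and 8.69 (B) in SE vehicle, against 1.90 (A) and 11.9 (B) in WT DOX and 2.25 (A) and 14.02 (B) in WT vehicle. Nearly all of it was EGFL7, which reached 13.8 in WT vehicle B, with PECAM1 and VWF at or under 0.0136 unnormalized FPKM. EGFL7 was past the 1.5-fold limit in SE, with -0.78 in DOX and -0.60 in vehicle, as well as in WT, with -2.63 and -2.69. The myeloid and endothelial sums thus differed between A and B in the same directions in SE as in WT. T-cell markers summed to 6.19 to 6.97 over all libraries, mostly GATA3, with CD3G, CD8B and CD7 listed at 0. The part of other cell types in the members' values was not tested. In bulk RNA, fewer cells of a kind and less RNA per cell cannot be told apart.

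The genes whose pattern was most like that of ERG over the 8 libraries, by Pearson r on log2 values set to equal library medians, with small RNA, LOC and LINC names skipped, were TSPAN14 (r = 0.996), OAS2 (r = 0.995) and GPM6B (r = 0.994). In each of them the WT replicate A libraries were the lowest, for example OAS2, an interferon-induced gene, at 13.6 unnormalized FPKM in WT DOX A, below the 16.4 to 17.6 of the 6 libraries that are not WT replicate A. Without both WT replicate A libraries, r over the other 6 was 0.942 for TSPAN14, 0.924 for OAS2 and 0.877 for GPM6B. The libraries share their replicates, and r is a description of them.

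In the normalized table, which carries the spike-in scale, the lines separated differently: ERG overlapped between SE and WT, STAP1 did not, and PTPRM was apart in both tables. ERG averaged 29.4 ± 3.53 normalized FPKM in SE vehicle and 25.2 ± 5.75 in WT vehicle, and 24.5 ± 4.93 in SE DOX and 25.6 ± 5.29 in WT DOX (SD, n = 2 each). STAP1 averaged 122 ± 10.7 in SE vehicle and 181 ± 61.9 in WT vehicle, and 101 ± 18.4 in SE DOX and 174 ± 56.8 in WT DOX (SD, n = 2 each). CLEC12A averaged 5.08 ± 0.290 in SE vehicle and 8.09 ± 4.50 in WT vehicle, and 4.10 ± 0.971 in SE DOX and 7.47 ± 3.66 in WT DOX (SD, n = 2 each). CLEC12A overlapped between the lines, as did AGAP1, which averaged 14.3 ± 1.25 in SE vehicle and 19.0 ± 5.91 in WT vehicle (SD, n = 2 each). PTPRM averaged 0.773 ± 0.187 in SE vehicle and 0.291 ± 0.217 in WT vehicle, and 0.654 ± 0.174 in SE DOX and 0.267 ± 0.167 in WT DOX (SD, n = 2 each). STAP1 was lower in each of the 4 SE libraries than in each of the 4 WT libraries. Lines without overlap were common: 65.5% of genes tested had none in this table, 0.34% with SE above WT. Among unnormalized values, 19.4% had none, 7.95% with SE above WT, and ERG was among these, the 1 of the 4 tested members without overlap there. These shares do not cover PTPRM, which was under the testing minimum. Other listed genes under it also had no overlap in either table, such as PTPRU with SE above WT and MERTK with SE below WT.

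**Figure D4:**
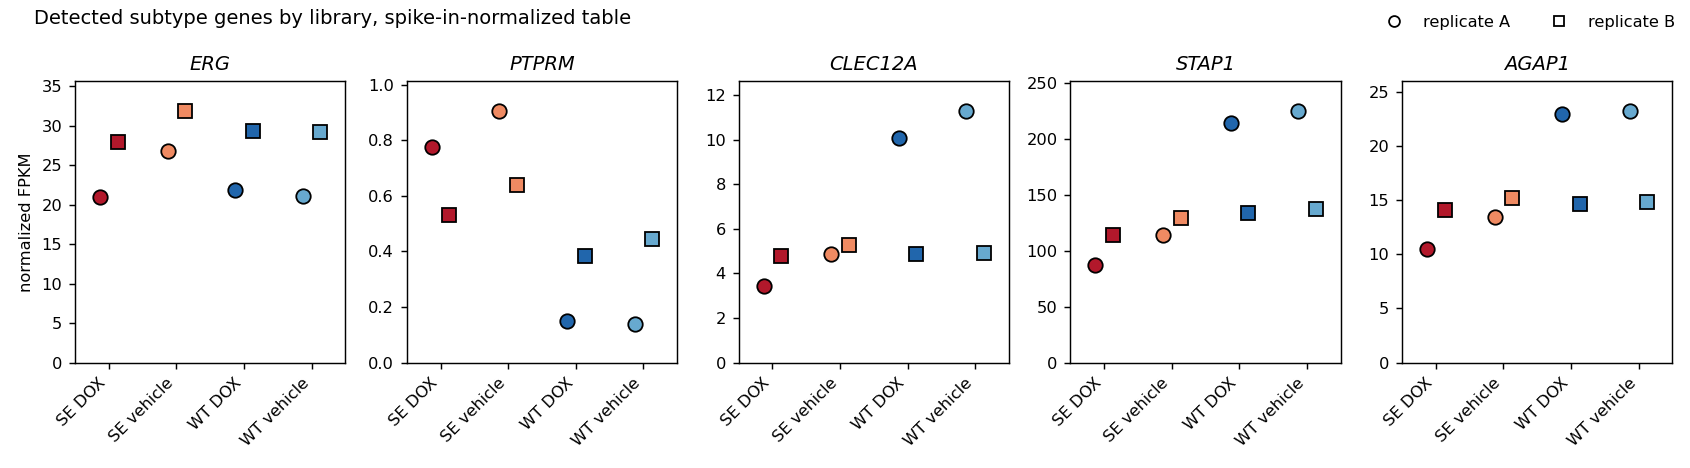
Normalized FPKM (vertical axes from 0) of the 5 members with signal in each library, by group, with circles for replicate A and squares for replicate B. STAP1 in SE lies below WT in every library, while ERG overlaps between the lines.

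None of the 4 tested members passed the test between lines. limma, fitted to all 4 groups with Benjamini-Hochberg adjustment over 11465 genes, called 0 of 4 members in SE against WT in vehicle, where 0.183% of all genes were called, and 0 of 4 in DOX, where 0.105% were. By limma's unadjusted p under 0.05 the members were 0 of 4 in vehicle, beside 7.12% of all genes, and 1 of 4 in DOX, beside 60.4% of all genes. In vehicle the log2 fold change was 0.23 for ERG (standard error 0.25, adjusted p = 0.466), -0.54 for CLEC12A (standard error 0.40, adjusted p = 0.346), -0.53 for STAP1 (standard error 0.32, adjusted p = 0.339) and -0.37 for AGAP1 (standard error 0.28, adjusted p = 0.347), beside a median of -0.32 over all genes. In DOX they were -0.06, -0.78, -0.76 and -0.59, beside a median of -0.53, with adjusted p from 0.0776 for STAP1 to 0.824 for ERG. With equal library medians, limma gave ERG 0.53 in vehicle (95% interval -0.12 to 1.18, adjusted p = 0.686) and 0.45 in DOX (-0.20 to 1.09, adjusted p = 0.726), so the sign for ERG in DOX depends on the scale. Without both WT replicate A libraries, which leaves 1 WT library a group that is assumed to vary like the SE ones, the values in vehicle were -0.0014 for ERG, 0.05 for CLEC12A, -0.17 for STAP1 and -0.05 for AGAP1. In DOX they were -0.27 for ERG, -0.27 for CLEC12A, -0.43 for STAP1 and -0.27 for AGAP1, and 0 of 4 members passed in either. PTPRM, in a fit with no minimum, had 1.26 in vehicle (standard error 0.46, adjusted p = 0.319) and 1.10 in DOX (standard error 0.46, adjusted p = 0.168), on a scale where rows listed at 0 stand near 0.1. Without both WT replicate A libraries PTPRM had 0.67 in vehicle (adjusted p = 0.756) and 0.62 in DOX (adjusted p = 0.669).

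The members' values in DOX lay close to those in vehicle. In the unnormalized table, the DOX library differed from the vehicle library of the same line and letter by log2 differences between -0.17 and 0.07 for the 4 tested members. For ERG these were 0.00077 (A) and -0.06 (B) in SE and 0.07 (A) and 0.04 (B) in WT. For CLEC12A they were -0.17 (A) and 0.01 (B) in SE and -0.15 (A) and 0.05 (B) in WT, so both A libraries were lower in DOX and both B libraries were not.

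On the normalized scale, limma called 0 of 4 members for DOX against vehicle in WT, where 0.0698% of all genes were called, and 0 of 4 in SE, where 0.0523% were. At an unadjusted p under 0.05 it was also 0 of 4 in each, beside 0.323% of all genes in WT and 0.436% in SE, shares at which 0 of 4 says nothing particular of the members. In WT the log2 fold change was 0.02 for ERG (95% interval -0.53 to 0.57), -0.08 for CLEC12A (-0.98 to 0.81), -0.05 for STAP1 (-0.77 to 0.67) and -0.02 for AGAP1 (-0.64 to 0.60), each with adjusted p = 1. In SE it was -0.27 for ERG, -0.32 for CLEC12A, -0.29 for STAP1 and -0.23 for AGAP1, with adjusted p of 0.537 to 0.541. These lie near the median of all genes, -0.03 in WT and -0.24 in SE. The fit has no term for the replicate letter, so its DOX intervals include the spread between A and B. The difference of the DOX effects, SE minus WT, was -0.29 for ERG, -0.23 for CLEC12A, -0.23 for STAP1 and -0.21 for AGAP1, beside a median of -0.21 over all genes, and 0 of 4 passed (adjusted p = 0.83 each), with 0.0785% of all genes called. A change of 1.5-fold, 0.585 on the log2 scale, lay just outside the WT interval of ERG and inside those of the other members. This depends on the scale: with equal medians the interval was -0.60 to 0.70 for ERG and -0.93 to 0.81 for CLEC12A, which include it, and -0.50 to 0.45 for STAP1 and -0.42 to 0.44 for AGAP1, which do not. No gene of the companion lists passed in any of the 5 comparisons by limma. At an unadjusted p under 0.05, limma gave 0 of the 17 ETS genes for DOX in WT and 0 in SE, and 3 for SE against WT in vehicle and 11 in DOX, where 816 and 6929 of all 11465 genes were under it.

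**Figure D5:**
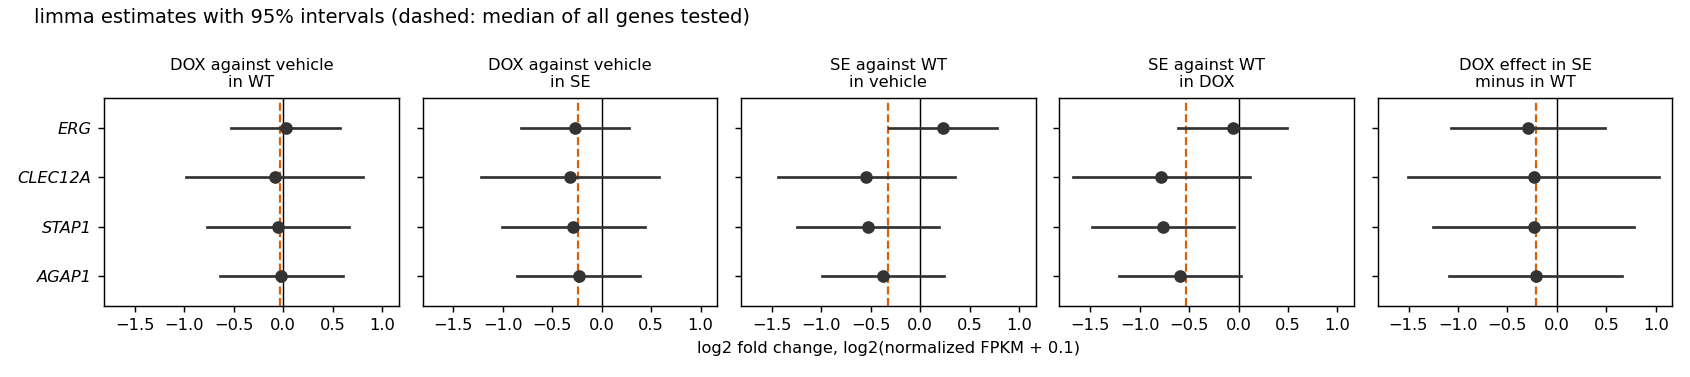
limma log2 fold changes (points) with 95% intervals (bars) of the 4 tested members in each comparison, on log2(normalized FPKM + 0.1); the dashed line is the median of the 11465 genes tested. The points for DOX lie close to the dashed line, and the interval of STAP1 for SE against WT in DOX (-1.48 to -0.04) is the 1 that does not include 0.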

How the data were processed

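Poly(A) RNA of 8 NALM6 libraries was analysed. The authors deposited unnormalized and normalized FPKM tables; HISAT, Cufflinks 2.0.0 and hg19 are named per the submitters' processing notes; how the authors normalized was not stated in the sources used here. After normalization, spike-in sums are nearly equal, 7050 to 7166, and rows listed at 0 in the unnormalized one stand near 0.1. Values were taken as log2(FPKM + 0.1), with spike-ins and genes under a mean of 1 normalized FPKM left out. This log2(value + pseudocount) scale understates fold changes of low genes. limma 3.58.1 (R 4.3.3, trended empirical Bayes) was fitted to 4 group means over 11465 genes, with Benjamini-Hochberg adjustment at 0.05. The procedure was tested on simulated data. The files hold no counts, so no counting interval is given. Named were the 7 members, HMGN1, DUX4 rows, the 3 list genes of highest level and the 3 genes most like ERG; other list genes were picked after their values were seen. Members and lists were chosen with earlier results of these data known. Alternatives are in the closing section.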

Additional observations from a re-analysis of the deposited data

How the results depend on the processing

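No tested member was called under any alternative with 1 exception: with a replicate block, 1 member was called for DOX against vehicle in SE, CLEC12A at -0.32 (limma adjusted p = 0.0342), while with equal library medians and small RNA names left out as well it was not. The labels share only the letters A and B, which do not say that libraries are paired. Without small RNA names the A minus B differences of DOX and vehicle correlated across genes at r = 0.767 in WT and 0.739 in SE. Over all genes the block moved the count of calls from 8 to 181 for DOX in WT, from 6 to 1663 in SE, from 9 to 227 for their difference, from 12 to 24 for SE against WT in DOX and from 21 to 28 in vehicle. Across the alternatives without the block, counts ran from 0 to 112 for DOX in WT, 0 to 138 in SE, 0 to 176 for their difference, 9 to 8286 for SE against WT in DOX and 10 to 190 in vehicle. The 8286 came without SE DOX B; the 112, 176 and 190 came without both WT replicate A libraries, and the 138 from a fit to the SE groups alone.

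Directions near 0 turned. AGAP1 for DOX in WT was 0.017 in the unnormalized table, 0.0078 with equal medians, 3.6e-05 with 1 spike-in factor per library and 0.012 with small RNA names left out and equal medians, with or without the block. In SE it was 0.0073 unnormalized, 0.0036 with equal medians and 0.011 with small RNA names left out and equal medians. ERG for SE against WT in DOX was 0.46 unnormalized, 0.45 with equal medians and 0.45 with small RNA names left out and equal medians. Without both WT replicate A libraries, chosen after seeing the data, ERG was -0.0014 and CLEC12A 0.047 in vehicle. Leaving out 1 library at a time, DOX in WT ran from -0.21 to 0.26 for ERG, -0.68 to 0.51 for CLEC12A, -0.34 to 0.30 for AGAP1 and -0.41 to 0.30 for STAP1. SE against WT ran from -0.0014 to 0.47 for ERG and -1.14 to 0.047 for CLEC12A in vehicle and from -0.27 to 0.15 for ERG in DOX. The difference of the DOX effects ran from -0.83 to 0.36 for CLEC12A, -0.54 to 0.11 for AGAP1 and -0.59 to 0.12 for STAP1. The cause was not tested. Groups of 2 and unknown fragment counts limit the precision.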

Other observations

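B-lineage genes also differed between the WT replicates. DNTT, the terminal transferase of early B and T cells, was lower in replicate A, with log2 differences of -0.83 in DOX and -0.84 in vehicle at equal library medians, and MS4A1 (CD20), a marker of later B cells, was higher by 0.69 and 0.76. In SE, MS4A1 was also higher in replicate A, by 1.47 and 1.27, and CD22, a B-cell inhibitory receptor, was lower, with -0.67 and -0.65. DNTT and MS4A1 were the 2 of 17 B-lineage genes past the 1.5-fold limit in WT, beside 3.04% of all genes, and CD22 and MS4A1 the 2 of 17 in SE, beside 1.54%. They were picked after their values were seen. IGJ, the joining chain of secreted immunoglobulin, stood at 12.5 (A) and 2.52 (B) unnormalized FPKM in WT DOX and 12.6 (A) and 2.17 (B) in WT vehicle, and at 0.733 to 1.22 in SE.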
